A study of Homo sapiens with 30 samples.

Results

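Expression of 10 genes for noncollagen glycoproteins and laminins of the extracellular matrix was followed across 30 libraries of LX2. LX2 is an immortal human line with the traits of an activated stellate cell of the liver. The members were taken by symbol from the Ensembl identifiers of the deposited table. They are FN1, SPARC, FBN1, TNC, POSTN, MATN2, LAMA4, LAMB1, LAMC1 and NID1, 10 of the 61597 genes listed, and all 10 passed the filter on low values. The libraries were 3′ tag libraries, in which a read comes from near the polyadenylated end, so a level carries no factor of gene length. It counts reads, and how evenly the ends of different genes were captured was not tested. Levels are in CPM, reads per 1000000 reads counted in genes.

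The cells belonged to 6 groups of 5 libraries, named by pretreatment and treatment: DHA+BTC, DHA+Veh, OLA+BTC, OLA+Veh, Veh+BTC and Veh+Veh. DHA is docosahexaenoic acid, a polyunsaturated omega-3 acid, and OLA is oleic acid, a monounsaturated omega-9 acid. Both were used at 50 µM, carried on albumin at 20 µM, in 2 cycles of 48 hours. BTC is betacellulin, a ligand of the ErbB receptors, used at 20 ng/ml for 72 hours, and all groups had medium with 1% serum. The labels also give the fatty acids in the treatment itself, for 96 hours in the protocol and 72 hours in the sample entries, and the sources used here do not settle which. The albumin is named only as the carrier of the fatty acids, and whether the vehicle cultures had it was not given. Each group had 1 library in each of 5 experiments that the labels number, and all cells were of 1 line. The p-values therefore cover only how far cultures of this line differed.

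Matrix glycoproteins join collagen fibres, growth factors and the integrins of the cell surface into a network. A laminin is a trimer of an alpha, a beta and a gamma chain, and nidogen ties laminin to type IV collagen in basement membranes. Hepatic stellate cells are a main source of these proteins in the liver, and they lay down more of them once activated.

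The 30 libraries held 1245182 to 9490142 reads, median 3683035. Totals averaged 3028129 ± 1074169 reads after DHA, 4200426 ± 818122 after OLA and 4515158 ± 1933237 after vehicle (SD, n = 10 each). The lowest totals were those of 3 DHA libraries, from experiment 5 (DHA+BTC and DHA+Veh) and experiment 4 (DHA+BTC). A count of 0 allows up to 3 reads, which was 0.316 to 2.41 CPM. Among markers of the labelled cell type, COL1A1 averaged 925 CPM, VIM 417 CPM, ACTA2 59.7 CPM and PDGFRB 43.6 CPM over the 30 libraries, while DES and LRAT averaged 0.0394 and 0.0303 CPM, close to 0. The summed level of 10 hepatocyte and epithelial markers ran from 122 to 356 CPM after DHA, 162 to 728 CPM after OLA and 165 to 788 CPM after vehicle, nearly all of it KRT18, KRT8 and CDH1. The sum of 8 endothelial markers ran from 3.03 to 11.8 CPM after DHA, 3.10 to 48.5 CPM after OLA and 0.591 to 9.69 CPM after vehicle, with 7 of the 8 under 1 CPM on average. The sum of 8 leukocyte markers ran from 16.7 to 73.1 CPM after DHA, 19.2 to 104 CPM after OLA and 13.7 to 65.4 CPM after vehicle, led by CD14 and CD68 at 17.2 and 11.1 CPM on average. ALB averaged 0.0149 CPM, and TTR, STAB2 and CD3E were at 0 in every library.

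The 10 genes spanned a wide range of levels. FN1, which encodes the integrin-binding fibronectin, averaged 702 CPM over the 30 libraries, and SPARC, a collagen-binding matricellular protein, averaged 460.1 CPM. The shared laminin chains LAMB1 and LAMC1 averaged 101 and 83.6 CPM. FBN1, the fibrillin of microfibrils, averaged 48.3 CPM, the laminin chain LAMA4 36.6 CPM and tenascin-C, TNC, 29.5 CPM. NID1, nidogen, averaged 18.5 CPM, the matrilin MATN2 14.5 CPM and periostin, POSTN, 3.27 CPM. Several neighbours in that order were not separated. LAMB1 exceeded LAMC1 in 18 of 30 libraries, FBN1 exceeded LAMA4 in 19, LAMA4 exceeded TNC in 19 and TNC exceeded NID1 in 20, whereas SPARC exceeded LAMB1 in 30 of 30. FN1 and SPARC together made up 73.6% ± 2.40 of the members' summed level after DHA, 78.9% ± 5.50 after OLA and 79.6% ± 4.30 after vehicle (SD, n = 10 each). In bulk libraries fewer cells of a type and less RNA per cell cannot be told apart. The summed level itself was 1247 ± 664 CPM after DHA, 1581 ± 581 CPM after OLA and 1664 ± 869 CPM after vehicle. Those spreads overlap widely, but they pool the experiments, and the sum was not compared within experiments. On the log2(CPM + 1) scale FN1 and SPARC, most of the sum, each averaged lower after DHA than after vehicle in 5 of 5 experiments. Against OLA, FN1 was lower in 4 of 5 and SPARC in 5 of 5.

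**Figure D1:**
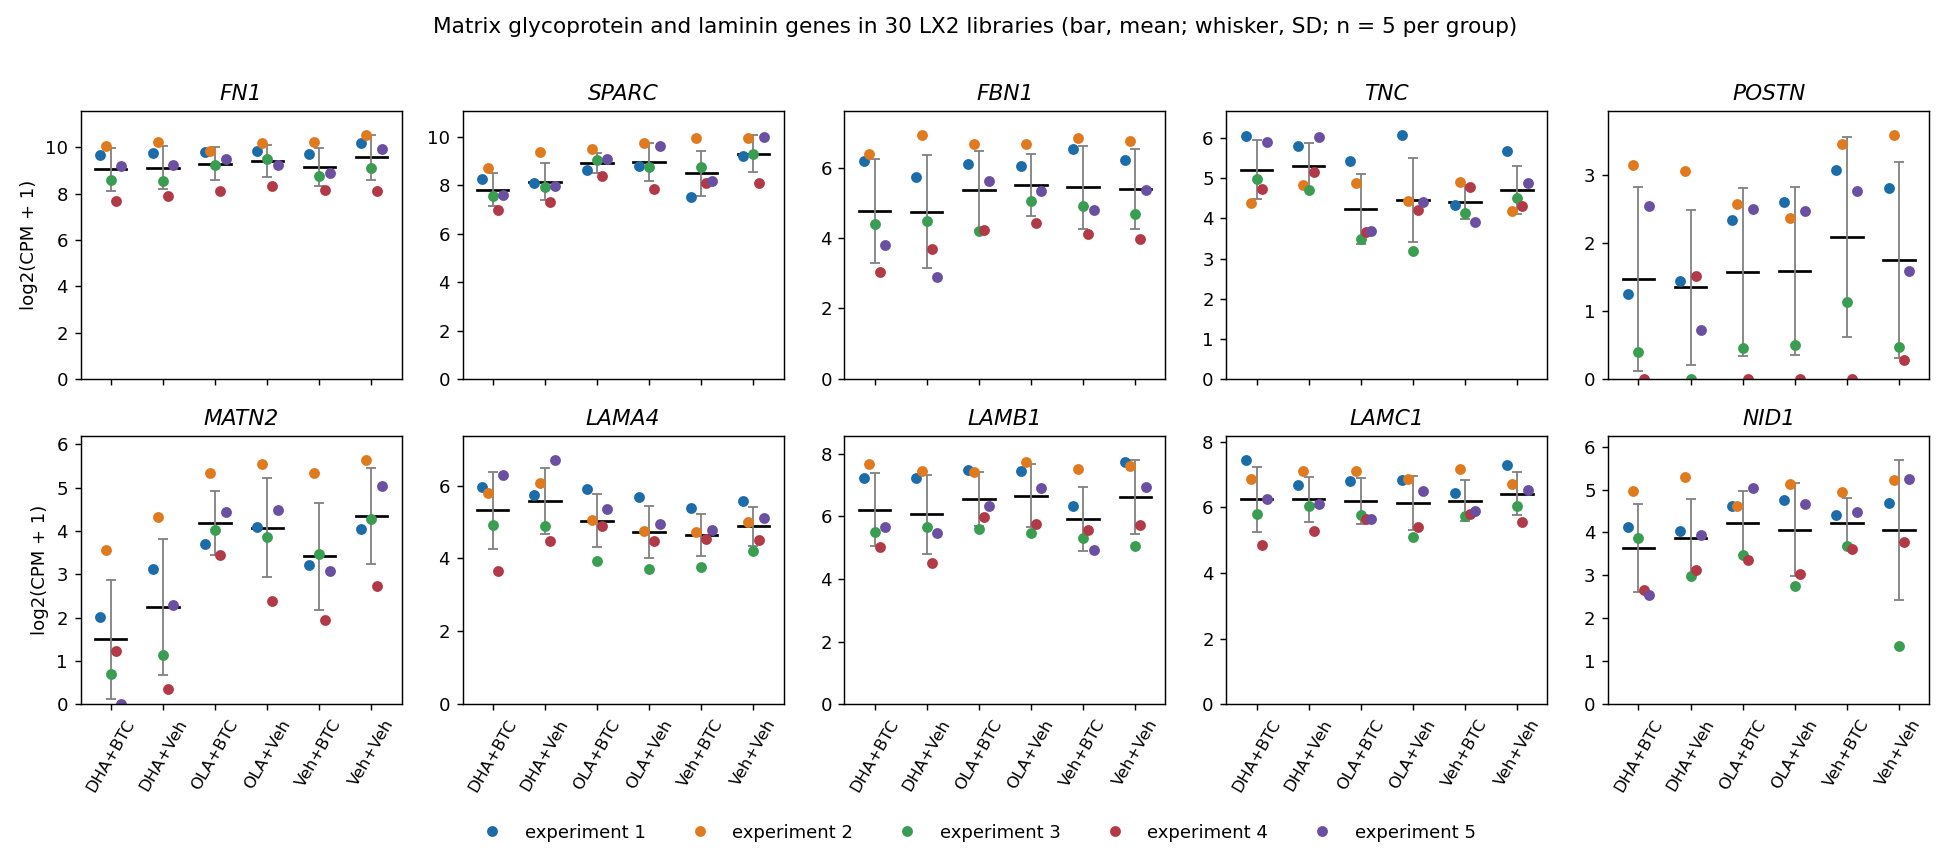
Level of each gene on the log2(CPM + 1) scale (y axis) in the 6 groups (x axis), with 1 point per library coloured by experiment, a bar at the mean and a whisker of 1 SD (n = 5). MATN2 is lowest in DHA+BTC and DHA+Veh, TNC and LAMA4 are highest there, and the orange points of experiment 2 lie at or near the top of most panels.

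In the averaged comparison of DHA with vehicle, which takes the libraries with and without BTC together, 5 of the 10 members were called. MATN2, SPARC and FBN1 fell and TNC and LAMA4 rose. A gene was called when its Benjamini-Hochberg adjusted p from limma was under 0.05 over the 15137 genes tested, and 10.7% of those genes were called, 2.33% higher and 8.38% lower. The genes were chosen with earlier results of these data known, so that share is a description. The same 5 members were called in the same directions against OLA, where 11.4% of all genes were called, 2.4% higher and 8.96% lower. The 2 comparisons share the DHA libraries, so they are not independent of each other. The median difference over all genes tested was -0.13 on the log2 scale against vehicle and -0.17 against OLA. Quantile normalization brought the first of these to -0.0018 and the split of calls against vehicle to 520 higher and 661 lower, in place of 352 and 1269. Against OLA it gave 532 higher and 648 lower, in place of 363 and 1356. With quantile normalization the differences from vehicle were -1.89 for MATN2, -0.86 for SPARC, -0.51 for FBN1, 0.79 for TNC and 0.84 for LAMA4, so no direction among the 5 turned.

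**Figure D2:**
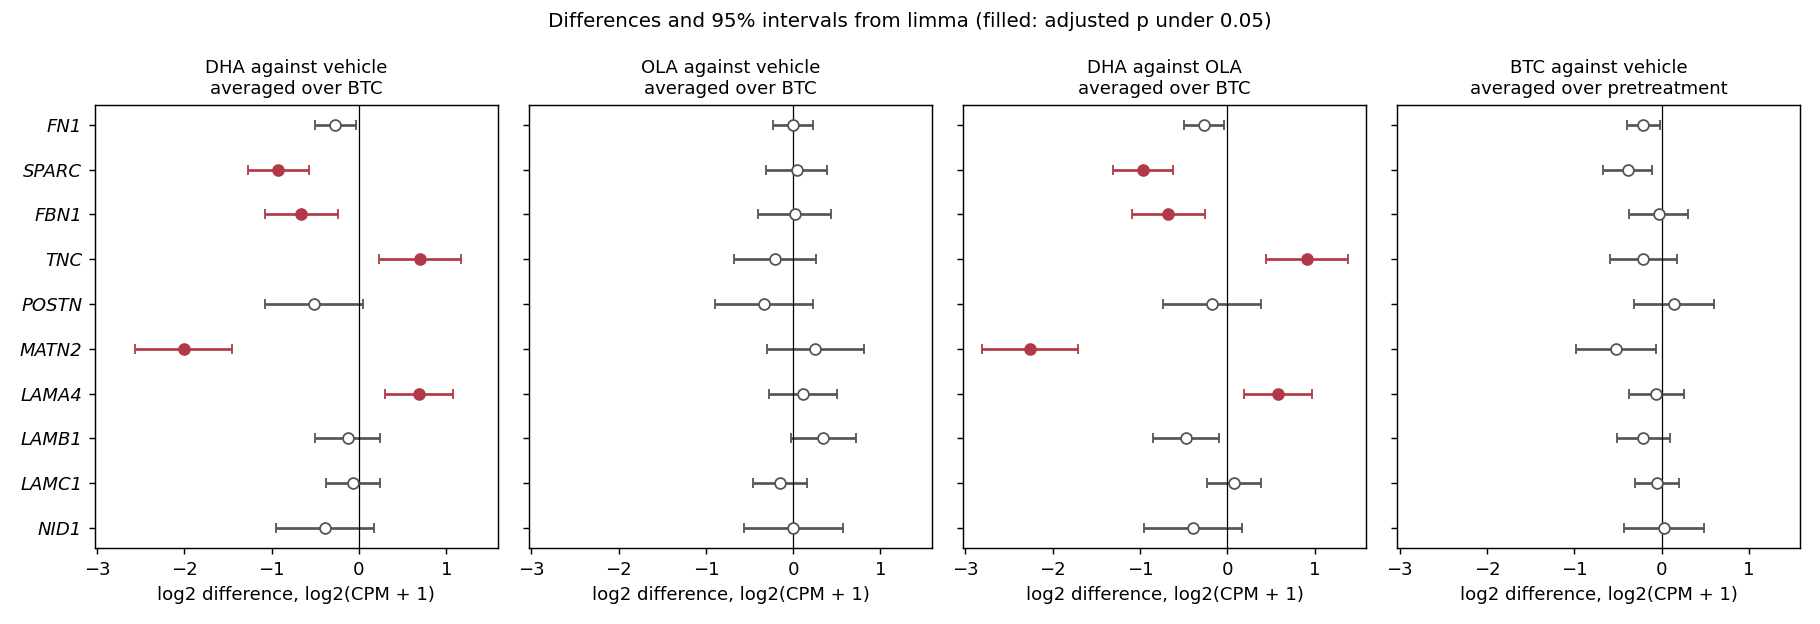
Difference of each gene on the log2(CPM + 1) scale with its 95% interval from limma (x axis), for DHA against vehicle, OLA against vehicle, DHA against OLA and BTC against vehicle (panels); filled red points passed the test. The same 5 genes are red in both panels with DHA, and the panels of OLA against vehicle and of BTC have no red point.

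The start regions of the genes that moved are shown so that those that fell can be set beside those that rose. RefSeq promoters of build GRCh38.p14 were matched for 9 of the 10 members, all except MATN2, and were read from 250 bases before to 50 bases after the gene start. The letters searched on both strands were TGANTCA (AP-1), GGAATG (TEAD), CAGACA (SMAD) and GGGCGG (GC box), held by 7.71%, 14%, 16.9% and 45% of the 35116 promoters in that table. Printed below are the 200 bases before the start, 5′ to 3′ on the strand of the gene, with matched letters in capitals. They lie at chr5:151686916-151687115 for SPARC, chr15:48644971-48645170 for FBN1, chr9:115118158-115118357 for TNC and chr6:112254568-112254767 for LAMA4, all on the minus strand.
SPARC: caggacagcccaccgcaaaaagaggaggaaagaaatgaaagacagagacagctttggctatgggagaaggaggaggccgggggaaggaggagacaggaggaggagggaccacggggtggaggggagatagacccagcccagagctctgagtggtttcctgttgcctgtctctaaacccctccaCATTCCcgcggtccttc
FBN1: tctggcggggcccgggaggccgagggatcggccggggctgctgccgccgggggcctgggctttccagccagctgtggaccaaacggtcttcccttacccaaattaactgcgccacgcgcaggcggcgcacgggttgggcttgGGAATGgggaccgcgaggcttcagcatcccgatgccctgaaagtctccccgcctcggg
TNC: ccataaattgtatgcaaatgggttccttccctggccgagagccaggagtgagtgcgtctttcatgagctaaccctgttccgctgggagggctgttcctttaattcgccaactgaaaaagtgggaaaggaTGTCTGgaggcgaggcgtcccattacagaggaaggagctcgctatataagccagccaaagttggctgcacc
LAMA4: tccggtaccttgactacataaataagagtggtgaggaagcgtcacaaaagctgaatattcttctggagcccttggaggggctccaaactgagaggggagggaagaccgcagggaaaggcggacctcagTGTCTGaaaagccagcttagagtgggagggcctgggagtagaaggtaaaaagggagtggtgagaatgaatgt
SPARC and FBN1, which fell after DHA, each held the TEAD letters once, SPARC on the opposite strand. TNC and LAMA4, which rose, each held the SMAD letters once, on the opposite strand, and TNC held 1 GC box in the part of the window not printed. Of the other members, FN1 held 6 GC boxes, LAMB1 4, LAMC1 3 and NID1 1, and POSTN held the AP-1 letters once. These matches are letters only and do not show that a factor binds there, and a tie to the direction of change was not tested.

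MATN2 (ENSG00000132561.14), a matrilin adaptor protein that binds other matrix proteins in filaments, fell most of the 10. In experiments 1 to 5 its level was 3.01, 10.8, 0.619, 1.34 and 0 CPM in DHA+BTC and 7.65, 19.2, 1.21, 0.265 and 3.90 CPM in DHA+Veh. After OLA it was 12.1, 39.6, 15.2, 9.92 and 20.7 CPM in OLA+BTC and 16.1, 45.7, 13.6, 4.19 and 21.3 CPM in OLA+Veh. After vehicle it was 8.27, 39.6, 10.1, 2.86 and 7.47 CPM in Veh+BTC and 15.6, 48.6, 18.3, 5.64 and 31.9 CPM in Veh+Veh. Within every experiment both DHA libraries lay below all 4 other libraries, which held for 0.297% of the genes tested. Across experiments the groups overlapped, since the DHA libraries of experiment 2 were higher than several vehicle libraries of other experiments. On the log2(CPM + 1) scale the difference was -2.01 ± 0.27 (SE) from vehicle, adjusted p = 1.48e-05 in limma, and -2.26 ± 0.27 from OLA, adjusted p = 2.42e-06, lower in 5 of 5 experiments both times. Experiment by experiment, the difference from vehicle was -1.07, -1.54, -2.95, -1.56 and -2.92, so no experiment came near 0. The DHA levels rest on few reads, 0 to 55 per library, and the zero in DHA+BTC of experiment 5 allows up to 2.41 CPM. The call against vehicle was lost without the experiment as a block, adjusted p = 0.0555, and remained without each library or experiment in turn, with an adjusted p of at most 0.00179.

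SPARC (ENSG00000113140.11), which binds collagen and modulates how cells attach to the matrix, fell as well. Its level in experiments 1 to 5 was 307, 417, 187, 125 and 195 CPM in DHA+BTC and 275, 674, 242, 158 and 250.2 CPM in DHA+Veh. After OLA the values were 396, 721, 523, 336 and 546 CPM in OLA+BTC and 443, 872, 435, 232 and 789 CPM in OLA+Veh. After vehicle they were 180.4, 1002, 434, 273 and 285 CPM in Veh+BTC and 586, 996, 627, 275 and 1024 CPM in Veh+Veh. Both DHA libraries lay below both OLA libraries in 5 of 5 experiments, a pattern found in 1.23% of the genes tested. They lay below both vehicle libraries in 4 of 5 experiments, the exception being experiment 1, where Veh+BTC was the lowest of the 6. The difference was -0.92 ± 0.17 (SE) from vehicle, adjusted p = 0.000513 in limma, and -0.96 ± 0.17 from OLA, adjusted p = 0.000391. Experiment by experiment, the difference from vehicle was -0.16, -0.91, -1.29, -0.96 and -1.29, and that from OLA -0.53, -0.58, -1.16, -0.99 and -1.57. Without the experiment as a block the adjusted p was 0.192 against vehicle and 0.197 against OLA.

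FBN1 (ENSG00000166147.15), whose protein polymerises into the microfibrils that scaffold elastin and store latent growth factor, also fell. Its level in experiments 1 to 5 was 71.1, 83.1, 20.1, 7.13 and 12.9 CPM in DHA+BTC and 52.1, 120.2, 21.5, 11.9 and 6.50 CPM in DHA+Veh. OLA libraries held 66.9, 99.8, 17.2, 17.6 and 48.0 CPM in OLA+BTC and 64.8, 101, 32.0, 20.6 and 39.7 CPM in OLA+Veh. Vehicle libraries held 91.2, 113, 29.3, 16.4 and 26.6 CPM in Veh+BTC and 72.9, 106, 24.5, 14.5 and 40.5 CPM in Veh+Veh. The gap was widest in experiment 5 and narrow in experiment 2, and the groups overlapped across experiments. The difference was -0.66 ± 0.21 (SE) from vehicle, adjusted p = 0.0340 in limma, and -0.68 ± 0.21 from OLA, adjusted p = 0.0294, with a lower mean in 5 of 5 experiments. Other settings also ended the calls of FBN1: against vehicle the adjusted p was 0.162 by edgeR and 0.106 by DESeq2 on the recovered reads, 0.0691 with median-of-ratios scaling, 0.0870 with quantile normalization, 0.0802 with no filter and 0.749 without the block, and against OLA it lay between 0.0607 and 0.720 in these settings. Averaged within each experiment before the fit, it was 0.110 against vehicle and 0.0994 against OLA, and with only the groups compared 0.0575 against OLA. Experiment 5 alone gave -1.73 from vehicle and -2.13 from OLA, and experiment 2 gave -0.13 and -0.01. Without experiment 5 the difference from vehicle was -0.40, adjusted p = 0.147, and that from OLA -0.31, adjusted p = 0.266; the call against vehicle was also lost without experiment 1, 3 or 4 and that against OLA without experiment 4, with differences from -0.61 to -0.74. Without the 3 shallowest libraries, all of them DHA libraries, the difference from vehicle was -0.24 with adjusted p = 0.494 and that from OLA -0.25 with adjusted p = 0.426, and the part of depth in this result was not tested. The call against vehicle was also lost without any 1 of these libraries, each given with its experiment: Veh+BTC 1, Veh+BTC 3, DHA+BTC 4, Veh+Veh 5, DHA+Veh 5 and DHA+BTC 5, with differences from -0.47 to -0.65, and that against OLA without any 1 of OLA+Veh 4, OLA+BTC 4, DHA+BTC 4 and the 4 DHA and OLA libraries of experiment 5, with differences from -0.49 to -0.65.

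TNC (ENSG00000041982.16), an anti-adhesive glycoprotein that is made in wounds and in scarred tissue, rose. In experiments 1 to 5 it stood at 65.9, 20.0, 30.3, 25.4 and 58.6 CPM in DHA+BTC and 54.6, 27.5, 25.1, 34.7 and 63.7 CPM in DHA+Veh. The OLA cultures had 41.8, 28.4, 10.3, 11.7 and 12.0 CPM in OLA+BTC and 66.5, 20.6, 8.05, 17.4 and 20.3 CPM in OLA+Veh. The vehicle cultures had 19.1, 28.8, 16.6, 26.4 and 13.9 CPM in Veh+BTC and 50.1, 17.0, 21.8, 18.7 and 28.5 CPM in Veh+Veh. Both DHA libraries were above all 4 others in experiments 3 and 5 and mixed with them in the other experiments. Against the OLA libraries alone, both DHA libraries were above in 3 of 5 experiments. For 0.357% of the genes tested both DHA libraries were above all 4 others in 5 of 5 experiments, and for 0.568% above both OLA libraries. TNC was not among those genes, so these shares do not apply to it. The difference was 0.70 ± 0.23 (SE) from vehicle, adjusted p = 0.0482 in limma, higher in 5 of 5 experiments, and 0.91 ± 0.23 from OLA, adjusted p = 0.0103, higher in 4 of 5. Without experiment 5 it was 0.48 from vehicle, adjusted p = 0.284, and 0.66 from OLA, adjusted p = 0.124, and it missed the threshold against vehicle without experiment 1, 3 or 4 and against OLA without experiment 3 or 4, at 0.64 to 0.89. Without the 3 shallowest libraries it was 0.48 from vehicle, adjusted p = 0.352, and 0.69 from OLA, adjusted p = 0.135. Against vehicle TNC also missed the threshold with a pseudocount of 0.5 CPM (adjusted p = 0.0504), with no filter (0.111), averaged within each experiment (0.113) and without the block (0.430), while edgeR gave 0.0255 and DESeq2 0.00768. Against OLA it missed the threshold without the block (0.261). Against vehicle the call was lost on leaving out any 1 of 18 of the 30 libraries, with differences from 0.56 to 0.73 and adjusted p up to 0.111: these were all 6 libraries of experiment 4 except Veh+BTC, all 6 of experiment 5 except the OLA pair, all 6 of experiment 1 except DHA+Veh and OLA+Veh, Veh+Veh and OLA+Veh of experiment 2, and OLA+BTC, DHA+Veh and DHA+BTC of experiment 3.

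**Figure D3:**
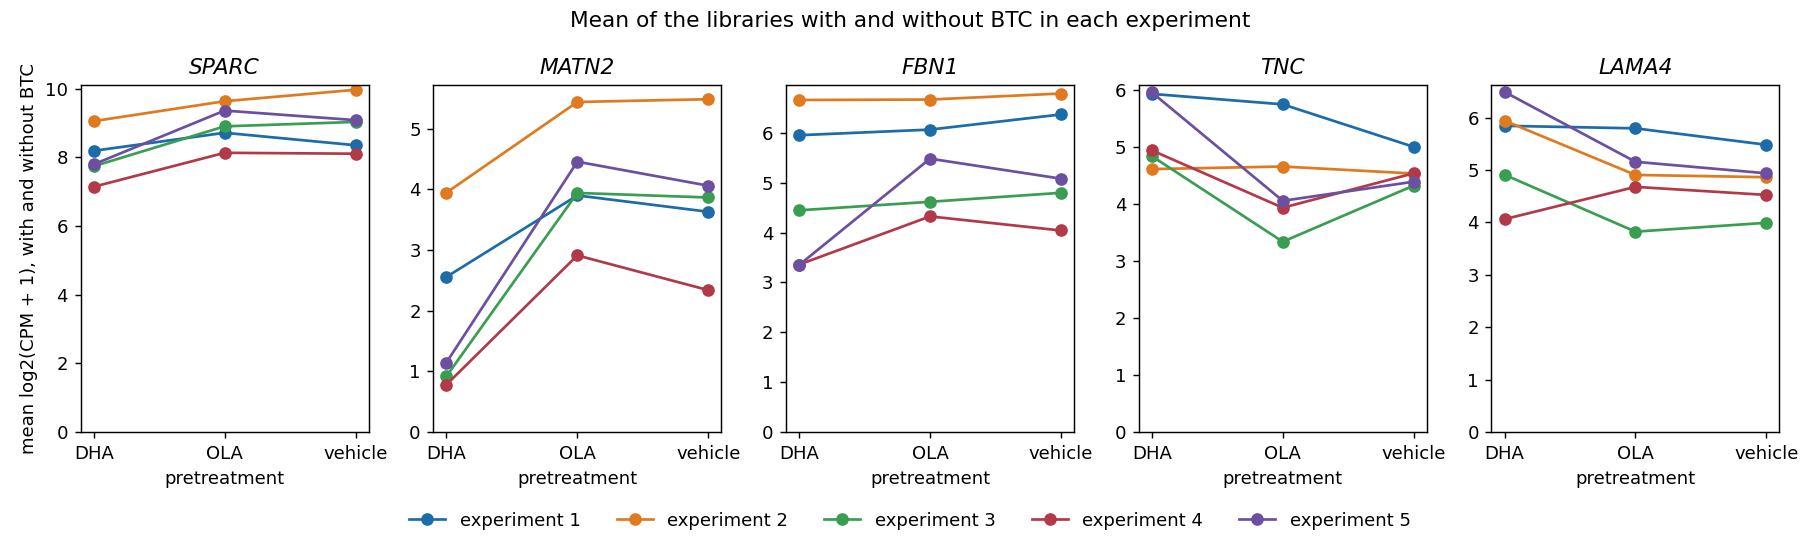
Mean log2(CPM + 1) of the libraries with and without BTC (y axis) after DHA, OLA or vehicle (x axis), with 1 line per experiment, for the 5 genes that were called. MATN2 and SPARC slope the same way in 5 of 5 experiments, while FBN1 and TNC are near level in experiment 2 and LAMA4 runs the other way in experiment 4.

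Among the laminin chains, the alpha chain LAMA4 (ENSG00000112769.20), found in the laminins of vessel walls and mesenchyme, rose, and LAMB1 and LAMC1 were not called. With only the DHA and OLA libraries in the fit that turned round for DHA against OLA: LAMB1 was called at -0.47, adjusted p = 0.0479 in limma, and LAMA4 was not, adjusted p = 0.0642. In experiments 1 to 5 LAMA4 stood at 61.2, 54.7, 29.4, 11.6 and 77.1 CPM in DHA+BTC and 52.1, 66.9, 28.8, 21.2 and 103 CPM in DHA+Veh. It stood at 59.1, 32.4, 14.2, 28.7 and 40.1 CPM in OLA+BTC and 50.4, 25.9, 12.2, 21.2 and 30 CPM in OLA+Veh. It stood at 40.8, 25.3, 12.7, 22.1 and 26.4 CPM in Veh+BTC and 46.9, 31.3, 17.5, 21.9 and 33.4 CPM in Veh+Veh. Both DHA libraries were above all 4 others in experiments 2, 3 and 5, and in experiment 4 DHA+BTC was the lowest of the 6 while DHA+Veh lay among the others. The difference was 0.69 ± 0.19 (SE) from vehicle, adjusted p = 0.0169 in limma, and 0.58 ± 0.19 from OLA, adjusted p = 0.0447, higher in 4 of 5 experiments both times. Without experiment 5 it was 0.47 from vehicle, adjusted p = 0.189, and 0.39 from OLA, adjusted p = 0.296, and it missed the threshold in both without experiment 2 or 3, at 0.45 to 0.63. Averaged within each experiment before the fit, the adjusted p of LAMA4 was 0.101 against vehicle and 0.158 against OLA. Without the block it was 0.471 against vehicle and 0.5999 against OLA, and against OLA it was 0.0883 with no filter, while edgeR gave 0.00215 against vehicle and 0.00937 against OLA. The call against OLA was lost on leaving out any 1 of 14 libraries, with differences from 0.48 to 0.58 and adjusted p up to 0.105: the DHA and OLA libraries of experiments 2, 3 and 5, and Veh+Veh of experiments 1 and 2.

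LAMB1 and LAMC1, the beta and gamma chains that many laminins share, ran from 21.7 to 213 CPM and from 28.1 to 173 CPM over the 30 libraries. LAMB1 averaged 91.2 ± 68.5 CPM after DHA, 114 ± 64.6 CPM after OLA and 98.5 ± 72.4 CPM after vehicle (SD, n = 10 each). Its difference after DHA was -0.13 from vehicle, with a 95% interval from -0.50 to 0.24, and -0.47 from OLA, interval -0.85 to -0.10, adjusted p = 0.0872 in limma. Experiments 4 and 5 held that gap from OLA: in experiment 4 LAMB1 stood at 31.2 and 21.7 CPM in DHA+BTC and DHA+Veh, against 61.8 and 52.7 CPM in OLA+BTC and OLA+Veh, and in experiment 5 at 49.8 and 42.9 CPM, against 78.6 and 119 CPM. In experiment 1 the LAMB1 values were 148 and 147 CPM, against 177 and 173 CPM, and in experiments 2 and 3 the DHA and OLA libraries overlapped. The 3 shallowest libraries were DHA libraries of experiments 4 and 5. Without them, in the fit of all groups, the difference of LAMB1 from OLA was -0.30, adjusted p = 0.498 in limma. LAMC1 averaged 85.7 ± 45.4 CPM after DHA, 79.3 ± 38.1 CPM after OLA and 85.7 ± 38.7 CPM after vehicle, and its difference after DHA was -0.07 from vehicle with an interval from -0.38 to 0.24. The share of LAMA4 in the sum of the 3 laminin chains, a measure chosen after the values were seen and given without a test, was 23.7% ± 11.0 after DHA, 15.0% ± 5.04 after OLA and 14.8% ± 4.98 after vehicle (SD, n = 10 each). That sum leaves out other laminin chains, among them LAMB2 at 52.5 CPM, LAMA5 at 46.3 CPM and LAMA1 at 22.3 CPM on average, so it does not describe all laminin. Averaged over BTC, the LAMA4 share was highest after DHA in 5 of 5 experiments. In experiment 5 it was 43.1% after DHA, against 18.2% after OLA and 18.4% after vehicle, and in experiment 1 16.7%, against 16% and 15.5%. With BTC alone the DHA share was the lowest of the 3 in experiment 1, at 16% against 17% and 19.7%. The same held in experiment 4, at 16.4% against 20.6% and 18%. In experiment 4 LAMA4 itself averaged -0.46 from vehicle, beside -0.89 for LAMB1 and -0.60 for LAMC1.

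The remaining members were not called. FN1 averaged 632 ± 345 CPM after DHA, 711 ± 275 CPM after OLA and 762 ± 419 CPM after vehicle (SD, n = 10 each). In experiments 1 to 5 FN1 stood at 814, 1065, 384, 206 and 591 CPM in DHA+BTC and 859, 1205, 371, 235 and 595 CPM in DHA+Veh. It stood at 901, 915, 594, 274 and 715 CPM in OLA+BTC and 914, 1150, 716, 319 and 611 CPM in OLA+Veh. It stood at 829, 1191, 432, 285 and 467 CPM in Veh+BTC and 1150, 1464, 554, 277 and 971 CPM in Veh+Veh. The experiments set FN1 levels apart more than the pretreatments did, with all 6 libraries of experiment 4 below all those of experiments 1, 2 and 5. Its difference after DHA was -0.27 from vehicle, 95% interval -0.50 to -0.04, lower in 5 of 5 experiments, with adjusted p = 0.126 in limma. With median-of-ratios scaling that difference was -0.15. NID1, the laminin linker, averaged 15.3 ± 11.0 CPM after DHA and 20.7 ± 11.6 CPM after vehicle, a difference of -0.39 with an interval from -0.95 to 0.18, and the sign of that difference varied, with 3 experiments lower and 2 higher. Without the 3 shallowest libraries NID1 was at 0.03 from vehicle and 0.03 from OLA, and over the fits that left out a library or an experiment its difference from vehicle ran from -0.71 to -0.08. The difference of NID1 from OLA was likewise -0.39, with an interval from -0.95 to 0.17. POSTN, a matricellular protein of collagen-rich scars, was too low for a firm reading: its libraries held 0 to 57 reads, and its difference after DHA was -0.51 with an interval from -1.07 to 0.05. POSTN was at 0 in 5 libraries, 4 of them in experiment 4.

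Taken with and without BTC apart, with 5 libraries against 5, fewer calls were made. Against vehicle 2 members were called without BTC and 1 with BTC, all of them lower. Of all genes 1.54% were called without BTC (0.595% higher, 0.945% lower) and 3.55% with BTC (1.08% higher, 2.46% lower). Against OLA 1 member was called without BTC and 2 with BTC, again lower. Of all genes 3.27% were called there without BTC (0.892% higher, 2.38% lower) and 1.72% with BTC (0.608% higher, 1.12% lower). The balance over all genes depended on the scaling: against vehicle, 90 higher and 143 lower without BTC became 113 and 81 with median-of-ratios scaling and 113 and 66 by edgeR, and 164 and 373 with BTC became 227 and 223, and 170 and 100. Against OLA, 135 higher and 360 lower without BTC became 146 and 165 by edgeR, and 92 and 169 with BTC became 116 and 49. MATN2 was called by limma in each of the 4, with differences from vehicle of -2.10 without BTC and -1.91 with BTC, and from OLA of -1.83 without BTC and -2.69 with BTC. With only the groups compared in the fit, MATN2 was not called with BTC, adjusted p = 0.193 against vehicle and 0.0582 against OLA; without the block it was called in none of the 4, and without experiment 3 only against OLA with BTC, the other values then lying between -1.60 and -1.85.

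SPARC accounted for the other calls, at -1.17 from vehicle without BTC, adjusted p = 0.00827 in limma, and -1.11 from OLA with BTC, adjusted p = 0.0142. In the remaining pair SPARC was at -0.68 from vehicle with BTC, adjusted p = 0.108, and -0.82 from OLA without BTC, adjusted p = 0.0516. These split calls of SPARC were fragile. Against OLA with BTC the call was lost with no filter (adjusted p = 0.0521), with only the groups compared (0.0997), without the block (0.845), without the 3 shallowest libraries (0.239), without experiment 3, 4 or 5, and without any 1 of OLA+BTC 3, OLA+BTC 4 and DHA+BTC 5, with differences from -0.94 to -1.11. Against vehicle without BTC it was lost without the block (0.999), without experiment 3 or 5 and without Veh+Veh 5 or DHA+Veh 5, with differences from -0.96 to -1.17. DESeq2 also called LAMA4 higher against vehicle without and with BTC (0.89 and 0.92) and against OLA without BTC (1.01), and TNC higher against OLA with BTC (1.16). Against OLA without BTC, LAMA4 was likewise called by edgeR (1.02), with quantile normalization (0.99) and with median-of-ratios scaling (0.94). There SPARC was called lower by DESeq2 (-0.74) and with a filter of 5 CPM in 5 libraries (-0.82).

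OLA at the same dose changed none of the members by the test. In limma 0 of the 10 members and 0% of all genes were called against vehicle, with 0 members also by edgeR and by DESeq2, and no member had an unadjusted p under 0.05. Over all genes 302 had an unadjusted p under 0.05. LAMB1 was nearest, at 0.34 above vehicle with a 95% interval from -0.03 to 0.72 and a higher mean in 5 of 5 experiments. The intervals of the called genes bound what OLA could have done here: -0.30 to 0.81 for MATN2, -0.31 to 0.39 for SPARC, -0.40 to 0.43 for FBN1, -0.68 to 0.26 for TNC and -0.27 to 0.50 for LAMA4. DHA has more carbons and more double bonds than OLA, and the tests of DHA against OLA given above are the tests of that pair.

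BTC gave no call among the members either. Averaged over the pretreatments, 0 members and 0% of all genes were called by limma, and edgeR and DESeq2 called 0 members. SPARC, MATN2 and FN1 had an unadjusted p under 0.05, as did 609 genes in all. SPARC was at -0.39 with a 95% interval from -0.67 to -0.11, lower in 4 of 5 experiments, MATN2 at -0.52 with an interval from -0.97 to -0.07, and FN1 at -0.21 with an interval from -0.40 to -0.02, lower in 5 of 5. Their adjusted p was 0.994 each. After each pretreatment taken alone 0 members and 0% of all genes were called as well. SPARC differed by -0.81 with BTC after vehicle, adjusted p = 0.445 in limma, by -0.32 after DHA and by -0.03 after OLA. After vehicle SPARC, FN1 (-0.43), LAMB1 (-0.68) and MATN2 (-0.94) had an unadjusted p under 0.05, as did 1539 of the 15137 genes tested. Tests of the interaction called 0 members and 0% of all genes for DHA with BTC, where LAMB1 had an unadjusted p under 0.05 at 0.83, as did 527 genes in all. For OLA with BTC they likewise called 0 members and 0% of all genes. There SPARC had an unadjusted p under 0.05 at 0.78, as did 1279 genes in all. By edgeR and DESeq2 0 members were called in both interactions.

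The experiment accounted for more of the spread than either treatment in 9 of the 10 genes. It held 89.1% of the variance of FN1 on the log2(CPM + 1) scale, 81.4% of LAMC1, 80.3% of FBN1 and 79.3% of LAMB1. For MATN2 it held 39.2% and the fatty acid 43.8%. The fatty acid held 28.4% of the variance of SPARC, 25.3% of TNC, 15.5% of LAMA4 and 7.36% of FBN1, and BTC held at most 5.41%, for SPARC. Experiment 2 had the highest mean level of 8 genes and experiment 1 that of TNC and LAMA4, while the lowest was in experiment 4 for 6 genes and in experiment 3 for 4. POSTN averaged 7.52 CPM in experiment 2 and 0.345 CPM in experiment 4, and FN1 1165 CPM and 266 CPM. What differed between the experiments was not given in the labels.

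**Figure D4:**
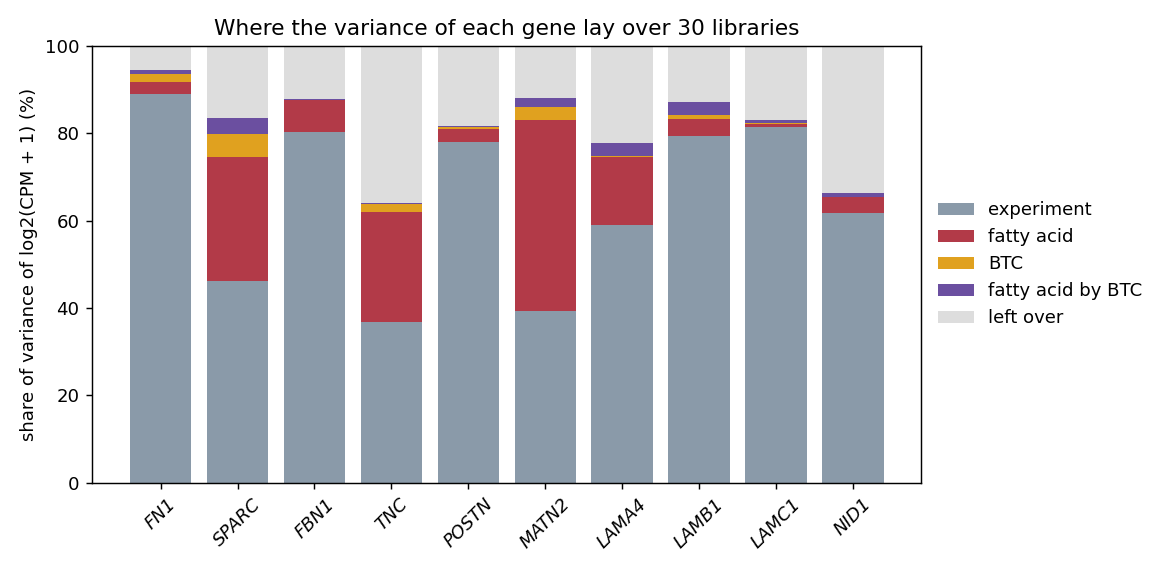
Share of the variance of log2(CPM + 1) over 30 libraries (y axis, percent) held by the experiment, the fatty acid, BTC, their interaction and what was left over, for each gene (x axis). The red part, the fatty acid, is largest in MATN2 (43.8%), SPARC (28.4%) and TNC (25.3%), and the grey-blue part, the experiment, is largest in FN1 (89.1%).

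Within experiments the members did not all move together. With each library taken as its deviation from the mean of its experiment, SPARC and MATN2 had a Pearson r of 0.872 over the 30 libraries, FN1 and SPARC 0.704 and SPARC and LAMB1 0.667. TNC ran against FBN1, with r = -0.63, and against MATN2, with r = -0.60, and LAMA4 ran against MATN2, with r = -0.57. These are descriptions, since the libraries share pretreatments, experiments and depth. The search for like genes covered 8206 genes with a symbol and a mean of at least 10 CPM, and members were left out of the ranking. The nearest to MATN2 were GFRA1, a receptor of glial cell line-derived factors (r = 0.93), THBS1, a thrombospondin (r = 0.91), and BIRC5, survivin (r = 0.89). The nearest to SPARC were SCD, the stearoyl-CoA desaturase (r = 0.94), OXTR, the oxytocin receptor (r = 0.94), and SKP2, a subunit of a ubiquitin ligase (r = 0.93). The nearest to TNC were HSPA1B, a heat shock protein (r = 0.90), G0S2 (r = 0.88) and SLC2A1, a glucose transporter (r = 0.86). The nearest to LAMA4 were MAFF (r = 0.84), TBX3 (r = 0.83) and THSD4 (r = 0.82), and the nearest to FBN1 UTP14A (r = 0.88), ATOH8 (r = 0.87) and CABLES1 (r = 0.87).

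**Figure D5:**
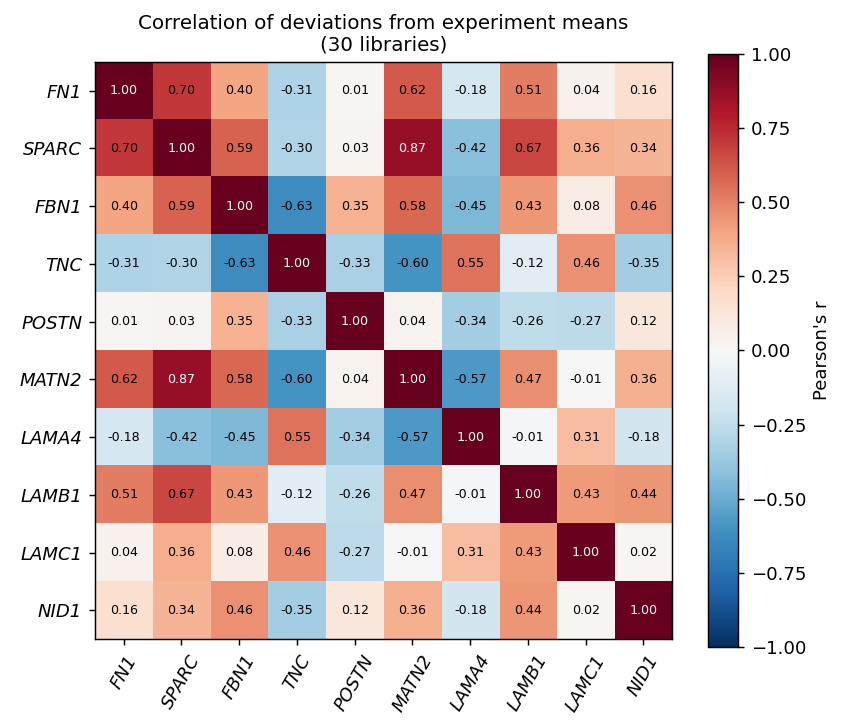
Pearson's r between each pair of genes over 30 libraries, taken as deviations from the mean of their experiment (red, together; blue, opposite). SPARC and MATN2 have the highest value, 0.87, and FBN1 and TNC the lowest, -0.63.

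The next 3 lists of related matrix genes held 11 genes called for DHA against vehicle, of which 1 rose and 10 fell; over all genes 2.33% were called higher and 8.38% lower. Of 11 other laminin chains and basement membrane linkers tested, 1 rose and 1 fell against vehicle, with a median difference of -0.08 beside -0.13 for all genes. LAMB3, a beta chain of epithelial laminin, rose by 1.76 (SE 0.31, adjusted p = 0.000312 in limma), and HSPG2, perlecan, the heparan sulphate proteoglycan of basement membranes, fell by 1.39 (SE 0.22, adjusted p = 7.39e-05). Of 13 elastic fibre and microfibril genes 0 rose and 4 fell, with a median of -0.24: EFEMP2, an elastic fibre assembly protein, at -0.74, FBLN1, a fibulin, at -0.76, FBN2, a further fibrillin, at -0.92 and ADAMTSL1 at -0.98. Of 14 other matricellular glycoproteins and matrilins 0 rose and 5 fell, with a median of -0.29. The 4 with the smallest p were CCN2, a connective tissue growth factor, at -1.68, THBS1 at -1.41, the thrombospondin THBS2 at -0.77 and CCN5 at -1.37.

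Of 15 receptors of these proteins that were tested, 3 rose and 1 fell against vehicle, and 3 rose and 1 fell against OLA. Over all genes 2.33% were called higher and 8.38% lower against vehicle, and 2.4% and 8.96% against OLA. That balance depended on the scaling, and the counts of these lists were taken in the main fit only. Their median difference was 0.06 from vehicle and -0.13 from OLA, beside -0.13 and -0.17 for all genes, and it was 0.32 from vehicle without BTC and -0.05 with BTC. ITGA5, the alpha chain of the classical fibronectin receptor, rose by 0.94 (SE 0.16, adjusted p = 0.000180 in limma), ITGB5 by 0.49 and the syndecan SDC4 by 0.35, each higher in 5 of 5 experiments. ITGB4, the beta chain of a laminin receptor, fell by 0.99 (SE 0.17, adjusted p = 0.000340). Of 10 stellate and fibroblast markers tested, 1 rose and 5 fell, with a median of -0.50, among them ACTA2 at -1.25 and the 3 fibrillar collagen genes of the list, COL1A2 at -1.51, COL3A1 at -0.71 and COL1A1, named here after its value was seen, at -0.53; the rise was DCN, decorin, at 0.99, with a mean of 1.67 CPM over all libraries. Among markers of other cells, KRT18 fell by 0.97 and CD14 by 1.19 and CDH1 rose by 1.28, and 0 of 3 endothelial markers were called; the part of other cells in these results was not tested. No gene of these lists was called by limma for OLA against vehicle or for BTC.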

How the data were processed

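The 30 columns are a deposited table of CPM values of 3′ tag libraries, which the authors made with STAR 2.5.3a and HTSeq 0.6.0 per the submitters' processing notes. Genome build, annotation and strand setting are not given in the sources used here. Columns sum to 1000000. Every value was a whole multiple of the worth of 1 read within 0.01 read, so read counts were recovered from the deposited CPM. The precision limit of 3 reads covers counting error only. Of 61597 genes, 42084 (68.3%) matched a symbol.

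The main test was limma 3.58.1 with a trend on log2(CPM + 1), in R 4.3.3, two-sided, for the 15137 genes that reached 1 CPM in 5 libraries or more, with all 30 libraries, the 6 groups and the experiment as a block. Adjusted p-values are Benjamini-Hochberg values within a comparison, called under 0.05. Fold changes of low genes are understated on this scale. Same-numbered libraries come from the experiment the labels name: over 75 pairs of groups and experiments, deviations from the group means had a median r of 0.507 (lowest 0.119). Between libraries of different experiments the median r was -0.199, which is negative partly because deviations from a group mean were taken. Averaged comparisons take an experiment's libraries with and without BTC as independent given the block.

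Alternatives were pseudocounts, no filter, a filter of 5 CPM in 5 libraries, median-of-ratios scaling, quantile normalization, no block, averaging within experiment, only the groups compared, edgeR 4.0.16 and DESeq2 1.42.0 on the recovered reads, and leaving out libraries or experiments. Members and gene lists were chosen with earlier results of these data known. Named list genes are up to 4 per list with the smallest adjusted p among those called, and like genes are the 3 with the highest r.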

Additional observations from a re-analysis of the deposited data

Results flagged for a closer look

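In 6 of 60 groups of 5 libraries the highest value stood apart from the others by a gap over the range of the group larger than Dixon's 95% critical value; chance flags about 1 in 20 groups. Of the 6, 5 were libraries of experiment 2. SPARC stood at 673.9 CPM in DHA+Veh of experiment 2, where the group median was 250.2 CPM. MATN2 stood at 10.79 CPM in DHA+BTC of experiment 2, with a group median of 1.337 CPM, and at 39.63 CPM in Veh+BTC of experiment 2, with a group median of 8.266 CPM. POSTN stood at 7.317 CPM and NID1 at 37.98 CPM in DHA+Veh of experiment 2, with group medians of 1.701 and 14.3 CPM. TNC stood at 66.45 CPM in OLA+Veh of experiment 1, with a group median of 20.32 CPM.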

How the results depend on the processing

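Of the 5 members called for DHA against vehicle, 3 were called with no filter on low values, 0 with no replicate block, 2 averaged within experiment and 3 without the 3 shallowest libraries. Against OLA the 5 became 3, 1, 3 and 3 in the same order of settings. Leaving out a library or an experiment gave 2 to 5 members in both comparisons. In these averaged comparisons MATN2 and SPARC kept their calls in all of these settings except without the block, where MATN2 kept the one against OLA. Counts of genes below the main count by over 1.5 times came without experiments 3, 4 and 5 against vehicle (966, 763 and 787) and without experiments 3, 4 and 5 against OLA (1118, 601 and 665). Genes called against vehicle, 1621 in all, numbered 104 with no replicate block, 784 averaged within experiment, 1001 with only the groups compared, 950 by edgeR and 575 without the 3 shallowest libraries, and 763 to 2071 on leaving out a library or an experiment. Genes called against OLA, 1719 in all, numbered 68, 771, 965 by edgeR and 537 without the 3 shallowest, and 601 to 2102 on leaving out. In the comparisons split by BTC, genes called against vehicle without BTC numbered 233, with 1 without the block, 273 with only the groups compared, 101 with no filter, 149 without the 3 shallowest, 359 by DESeq2 and 38 to 340 on leaving out. Those with BTC numbered 537, with 1, 9, 342, 79 and 544 in the same settings, 270 by edgeR and 126 to 1101 on leaving out. Against OLA they numbered 495 without BTC, with 2, 210, 256, 327 and 674, 311 by edgeR and 129 to 753 on leaving out, and 261 with BTC, with 1, 5, 95, 28 and 311, 165 by edgeR and 34 to 474 on leaving out. The lowest of each range came without experiment 3, 4 or 5 and the highest without a single library. The causes were not tested. No called value changed sign, and OLA, BTC and interaction calls among the members stayed at 0 in every setting run. Averaging within experiment could not be fitted for interactions. Depth limits MATN2 after DHA and POSTN throughout. In the 3 shallowest libraries FBN1 held 10 reads (DHA+Veh 5), 16 (DHA+BTC 5) and 16 (DHA+BTC 4). NID1 held 6 reads in DHA+BTC 5 and 12 in DHA+BTC 4. Without those 3 libraries the calls of FBN1 and TNC were lost, and the part of depth in that was not tested.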
